A study of Mus musculus with 9 samples.

Results

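The genes of ribosome biogenesis and RNA polymerase I were followed as a set of 34, listed by function and not by their values. The set held 7 genes of RNA polymerase I and its factors, 3 of the box C/D and 5 of the box H/ACA particles, 8 of the small and 7 of the large ribosomal subunit's assembly, and 4 abundant nucleolar proteins. A transcript record was found for 33 of them among the 19840 names in the data, and Wdr43, a small subunit gene, was not analysed here. Each of the 33 stood at 1 or more normalised RPKM in every library, so none was lost to a filter on low values.

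The data were RNA-seq profiles of erythroid cells from the fetal liver of C57BL/6 mice at embryonic day 13.5 to 14.5, with 9 libraries and 1 library for each condition. Fresh BFU-E, early red cell progenitors named burst-forming units, were Kit-positive cells without lineage markers, CD34 or CD41 that fell in the lowest 10% of CD71, the transferrin receptor. Fresh CFU-E, the later progenitors named colony-forming units, came from the same gate but from the highest 20% of CD71, and Ter119+ erythroblasts carried Ter119 but no Kit. BFU-E of 2 sorts were also cultured: the CD71 sort used the gate above, and the CD71/CD24a sort took the 10% lowest in both CD71 and CD24a. All 6 cultures had a first 4 h without agents, then 4 h in their arm, in a serum-free medium whose factors were erythropoietin at 2 U/mL, IGF-1 at 40 ng/mL and stem cell factor at 100 ng/mL. The arms of the CD71 sort were water and 100 nM Dex, the synthetic glucocorticoid dexamethasone. The CD71/CD24a sort received water, 100 nM Dex, DMOG (dimethyloxalylglycine, which blocks the hydroxylases that label HIF alpha proteins for removal) at 333 µM, or Dex and DMOG together. The labels name no separate animals or cultures behind the libraries of a condition.

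A ribosome begins as a long precursor rRNA that RNA polymerase I copies from the ribosomal DNA repeats in the nucleolus. Box C/D particles add methyl groups to that RNA and box H/ACA particles turn chosen uridines into pseudouridines, each guided by a small nucleolar RNA (snoRNA), while large sets of assembly factors fold and cut the precursor into the small and the large subunit. Red cell progenitors divide fast and make much protein, whereas late erythroblasts stop dividing and fill with globin, and the MYC transcription factor is known as a driver of many genes of ribosome production.

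Because MYC and its relatives bind the E-box CACGTG, the promoters of the members that hold it are shown first. The promoter table, from RefSeq (GRCm38.p6, another build than the mm9 of the levels), runs from 250 bases before to 50 bases after each start and matched 28 of the 34 genes. CACGTG, which reads the same on both strands, was found in 6 of those 28 (21.4%), namely Rrn3, Nop2, Pes1, Mybbp1a, Utp20 and Wdr43. It was found in 8.09% of all 27025 genes of the table and in 12.75% of the 7742 genes with a mean level of at least 1 in these libraries. The sequences below run 5′ to 3′ on the gene's strand, with CACGTG in capitals, and for Mybbp1a and Utp20, whose copy lies after the start, only the surrounding 30 bases are given.
Rrn3, chr16:13780449-13780698, + strand, copies 215 and 48 bases before the start: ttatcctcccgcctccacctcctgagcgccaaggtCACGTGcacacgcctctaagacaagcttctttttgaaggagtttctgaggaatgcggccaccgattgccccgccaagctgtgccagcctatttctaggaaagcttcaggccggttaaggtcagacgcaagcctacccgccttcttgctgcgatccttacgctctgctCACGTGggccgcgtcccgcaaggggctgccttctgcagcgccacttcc
Nop2, chr6:125131633-125131882, + strand, copy 60 bases before the start: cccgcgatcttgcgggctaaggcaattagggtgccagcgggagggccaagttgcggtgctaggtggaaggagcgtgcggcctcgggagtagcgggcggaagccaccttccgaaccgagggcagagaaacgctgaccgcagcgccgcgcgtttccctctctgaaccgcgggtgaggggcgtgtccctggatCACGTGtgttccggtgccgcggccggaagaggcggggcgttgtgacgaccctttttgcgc
Pes1, chr11:3963725-3963982, + strand, copy 2 bases after the start: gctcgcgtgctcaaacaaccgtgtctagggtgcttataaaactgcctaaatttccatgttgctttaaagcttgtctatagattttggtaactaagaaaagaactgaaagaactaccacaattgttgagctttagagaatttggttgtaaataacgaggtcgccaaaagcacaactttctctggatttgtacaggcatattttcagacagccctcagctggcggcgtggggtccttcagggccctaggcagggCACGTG
Mybbp1a, chr11:72441347-72441376, + strand, copy 40 bases after the start: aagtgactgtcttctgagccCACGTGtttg
Utp20, chr10:88826765-88826794, - strand, copy 37 bases after the start: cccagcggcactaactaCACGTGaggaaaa

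Of the other short motifs searched on both strands, CCGGAAG, the core bound by ETS factors, was in 32.1% of the 28 member genes, 9.93% of all genes of the table and 23.3% of the expressed ones. GATAA, part of the site bound by GATA factors, was in 7.14%, 28.4% and 18.9%, and CCAAT in 32.1%, 41.1% and 43.6%. The shorter ACGTG, which lies within CACGTG, was in 32.1%, 21.8% and 31.3%. These matches describe letters in a window and do not show binding.

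Levels are RPKM divided by 1 factor per library, and a difference means one in log2(normalised RPKM + 1), a scale that shrinks the change of low genes. Recovered depth ran from 11.9 to 52.9 M (mega) reads, with the CD71 sort cultures lowest and those with DMOG highest. Globin accounted for 38.1% of all RPKM in the Ter119+ library and at most 0.719% in any other. All 10 erythroid markers were found at 1 or more in 8 of the 9 libraries and 9 of them in the culture with both agents. The 14 neutrophil and mast cell markers summed to 205 in Ter119+ cells, 100.4 in fresh BFU-E, 4.87 in CFU-E, 27.3 and 27.7 in the CD71 cultures and 5.5 to 6.51 in the CD71/CD24a cultures. In bulk samples like these, fewer cells of a type and less RNA per cell cannot be told apart.

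The members were abundant transcripts in progenitors. Their median level was 64.3 in fresh BFU-E, 61.1 in CFU-E and 76.2 to 84.1 in the 6 cultures, and only 8.47 in Ter119+ erythroblasts. Among all genes at 1 or more in the same library, a gene at that median stood at percentile 90.0 in BFU-E, 88.4 in CFU-E, 91.4 to 92.8 in the cultures and 38.8 in Ter119+ cells. Together the 33 transcripts took 0.895% of the summed RPKM in BFU-E, 0.958% in CFU-E, 1.19% to 1.60% in the cultures and 0.0531% in Ter119+ cells. With globin left out of the total, the Ter119+ share was 0.0858%. Polr1e, which encodes a subunit found only in RNA polymerase I, was the lowest member in every library. The highest was Mybbp1a in fresh BFU-E and the CD71 Dex culture, Npm1 in CFU-E and the cultures with water in the CD71 sort and with DMOG alone, Ncl in the 3 remaining cultures and Ubtf in Ter119+ cells.

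**Figure D1:**
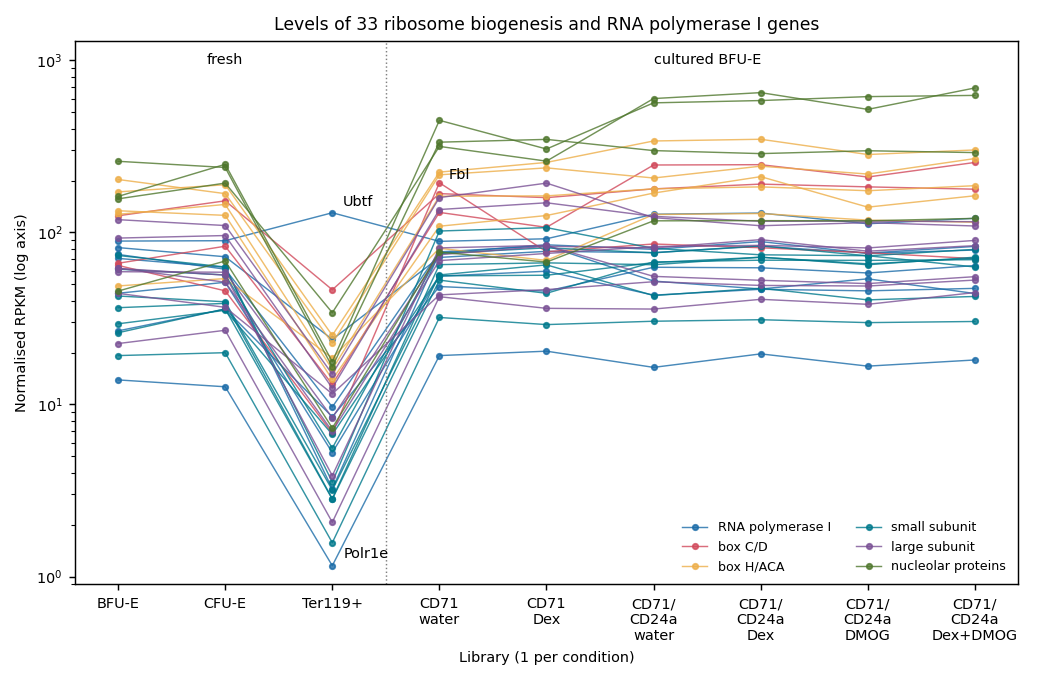
Normalised RPKM (log axis) of the 33 member genes in the 9 libraries, with 1 point per gene and library and lines joining the points of a gene, coloured by role. The points drop in the Ter119+ library for 32 genes, with Polr1e lowest at 1.16, while Ubtf stands at 130.1 there.

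The first comparison asked how the machinery differs between the early and the later progenitor, and it found like levels. Of the 33 members 0 were at least 2-fold higher in CFU-E and 0 at least 2-fold lower, where 3.32% of the 9947 genes compared were higher and 12.3% lower. The members' median difference was 0.01, against -0.08 over all genes, and 17 of 33 were above 0, where 43% of genes were. With 1 library per population there is no test, and 2-fold is a rule of size.

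The widest differences within the set were in nucleolar and box C/D genes. Npm1, which encodes the abundant nucleolar chaperone nucleophosmin, was at 162 in BFU-E against 249 in CFU-E, a ratio of 1.54 (95% interval of counting error 1.47 to 1.61). Gnl3, which encodes nucleostemin, a GTPase of large subunit assembly, was 45.6 and 68.2, a ratio of 1.5 (1.40 to 1.59). Fbl, the box C/D methyltransferase fibrillarin, went the other way at 64.3 and 45.7, a ratio of 0.711 (0.656 to 0.771). Of Fbl's sequence 78.6% is shared with other genes or pseudogenes, and of Npm1's 45.2%, and how reads from such sequence were assigned is not given in the sources used here. Across the 33 genes the difference followed GC content (Pearson r -0.68, against -0.23 over 9727 genes), a description across genes, which are not independent replicates. The part of GC content in these small differences was not tested.

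From CFU-E to Ter119+ erythroblasts, 32 of the 33 members stood at least 2-fold lower, in every role. Over all 9530 genes compared, 28.8% were 2-fold lower and 22.6% higher. The members' median difference was -2.85, against -0.21 over all genes. From fresh BFU-E the count was again 32 of 33, where 35.8% of 10249 genes were lower, with a median of -2.86. When the median difference of genes of like GC content was subtracted from each gene, it was 31, as Nop56 went from -1.41 to -0.96. Both comparisons use the same Ter119+ library.

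RNA polymerase I genes spanned the whole range of the set. Polr1b, whose protein forms the catalytic centre with Polr1a, was 70.6 in BFU-E, 62.7 in CFU-E and 3.23 in Ter119+ cells. That is the largest difference of any member, a level 19.4-fold lower than in CFU-E (15.5 to 24.3). Polr1a, the largest subunit, was 44.3, 51.3 and 5.25, and Polr1e 13.9, 12.7 and 1.16. The Ter119+ level of Polr1e rests on 11 reads as recovered over its coding length of 1302 bases. The interval of its 11-fold difference runs from 6.07 to 22.1. Polr1c, a subunit shared with RNA polymerase III, was 81.6, 72.2 and 23.9, only 3.02-fold lower than in CFU-E (2.60 to 3.55). Rrn3, which brings the polymerase to the promoter of the ribosomal DNA, was 26.8, 35.8 and 8.47, or 4.23-fold lower (3.52 to 5.12). Tcof1, the nucleolar phosphoprotein treacle, which serves rRNA transcription, was 74.4, 61.1 and 9.67.

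Ubtf, the ribosomal DNA-binding factor UBF, was the exception. Its level was 89.0 in BFU-E, 89.5 in CFU-E and 130.1 in Ter119+ erythroblasts, a ratio of 1.45 to CFU-E (1.38 to 1.53). A separate record of the same gene gave 87.1, 87.7 and 126. It was the highest member in Ter119+ cells, where the median of all genes at 1 or more was 13.7. Its direction rests on the scaling: with RPKM as deposited, without factors, the difference was -0.82 and the members' median -4.04.

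The box C/D genes were 2-fold or more lower in Ter119+ cells in 3 of 3 cases, with a median of -2.58. Nop56 and Nop58 encode the paired scaffold proteins of the particle. Nop56 was 125 in BFU-E, 153 in CFU-E and 46.4 in Ter119+ cells, the highest level of any member there besides Ubtf, and Nop58 was 66.2, 83.1 and 13.1. Fbl was 64.3, 45.7 and 6.81, or 6.72-fold lower than in CFU-E (5.03 to 9.11). All 5 box H/ACA genes were lower as well, with a median of -2.86. Dkc1, the pseudouridine synthase dyskerin, differed least, at 48.8, 53.9 and 18.6 (2.90-fold, 2.51 to 3.35). Its partners Nhp2 (172, 189 and 25.2), Gar1 (134, 126 and 14.0) and Nop10 (203, 168 and 22.7) were 7.40-fold to 8.99-fold lower than in CFU-E. The particles' chaperone Nolc1 had a difference of -3.11.

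Assembly factors of both subunits were 2-fold lower in 14 of 14 cases. The small subunit genes had the lower median, -3.27, and ran from Rrp9 (-3.82), a protein of the U3 snoRNA particle, to Nop14 (-2.23). Rrp9 was 73.4 in BFU-E, 63.0 in CFU-E and 3.54 in Ter119+ cells, 17.8-fold lower than in CFU-E (12.8 to 25.3). Heatr1, Wdr75 and Utp20, parts of the small subunit processome, had differences of -3.37, -3.27 and -3.03, Rrp12 of -3.28 and the rRNA acetyltransferase Nat10 of -3.13. Large subunit genes had a median of -2.79, from Rrs1 (-3.56) to Ebna1bp2 (-1.59). The 3 genes of the PeBoW complex, which processes the large subunit's precursor, were Wdr12 (-3.19), Bop1 (-2.79) and Pes1 (-2.67), and the rRNA methyltransferase Nop2 had -2.85 and Nop16 -2.71.

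The 4 nucleolar protein genes had a median of -3.40, the lowest of the 6 roles. Mybbp1a, a repressor of RNA polymerase I transcription and binding partner of MYB, was 259 in BFU-E, 238 in CFU-E and 16.5 in Ter119+ cells, 14.4-fold lower than in CFU-E (13.2 to 15.8). Npm1 was 162, 249 and 17.7, or 14.0-fold lower (11.6 to 17.0). Ncl, which encodes nucleolin, an RNA-binding protein of the nucleolus, was 157, 193 and 34.1, or 5.67-fold lower (5.19 to 6.19). Gnl3 was 45.6, 68.2 and 7.30. In all 4 genes the Ter119+ library lay far below both progenitors, which differed from each other by less than 2-fold.

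**Figure D2:**
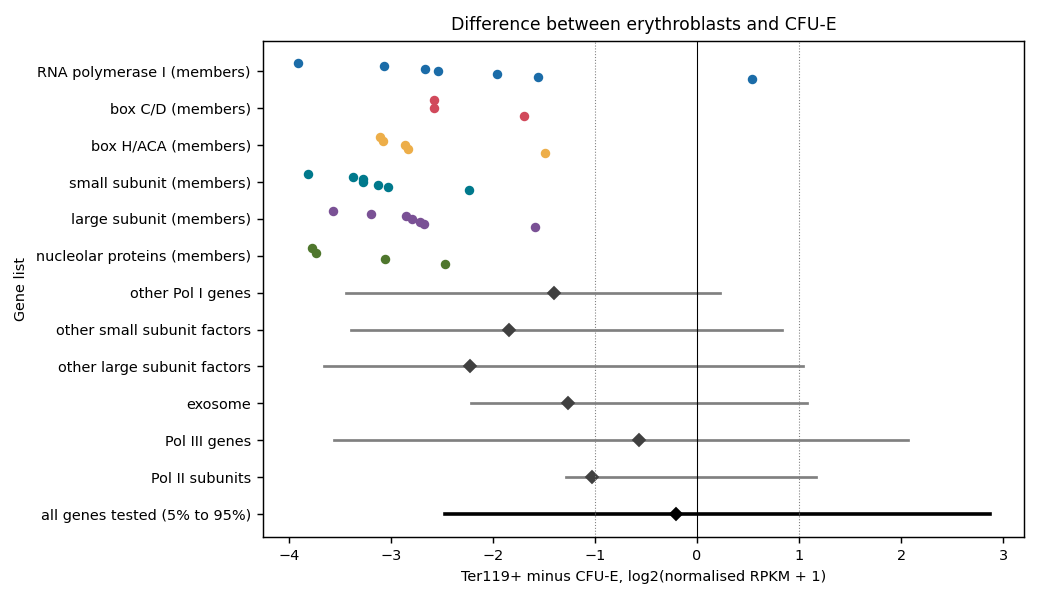
Difference between Ter119+ erythroblasts and CFU-E in log2(normalised RPKM + 1), with 1 point per member gene by role, and for other gene lists a diamond at the median and a line from lowest to highest gene (5% to 95% for all genes). Dotted lines mark 2-fold. All members but Ubtf lie left of -1, and the medians of the other lists run from -2.22 for other large subunit factors to -0.57 for RNA polymerase III genes.

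Other genes of the pathway, listed by function, were also lower in Ter119+ cells than in CFU-E, to differing extents. Of 60 further large subunit factors 50 were at least 2-fold lower, with a median of -2.22, from Sdad1 (-3.65) to Sbds (1.04). Of 50 further small subunit factors 39 were lower, with a median of -1.85, from Utp4 (-3.39) to Bysl (0.83). Of 14 other RNA polymerase I genes 8 were lower, with a median of -1.40, from Cd3eap (-3.44), which is specific to polymerase I, to the terminator factor Ttf1 (0.22). That list includes subunits also used by RNA polymerases II and III, such as Polr2k. The RNA exosome, which trims rRNA precursors, had 10 of 15 genes lower and a median of -1.27. The other polymerases were less shifted in their medians: 8 of 21 RNA polymerase III genes were lower (median -0.57), from Polr3d (-3.56) to the repressor Maf1 (2.06), and 4 of 7 RNA polymerase II subunits (median -1.03). No test was made of the differences between lists.

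Among factors known to act on these genes, Myc was 284 in BFU-E, 136 in CFU-E and 9.30 in Ter119+ cells, and Mycn 5.54, 0.0297 and 0.0524. The CFU-E and Ter119+ values of Mycn lie below the 0.126 and 0.172 RPKM of 3 reads on 1 kb. Mxd1, which encodes an antagonist of MYC, was 4.19, 3.52 and 291, the largest rise of the MYC network list. Mxd4, another antagonist, went the other way at 14.1, 3.77 and 0.924. Of 7 genes of that list compared from CFU-E to Ter119+, 3 were at least 2-fold higher and 2 lower. The 5 members with CACGTG in the promoter window and a record had a median difference of -2.85 between Ter119+ and CFU-E, and the 22 members without it also -2.85. Both sets thus had the same median. The erythroid markers summed to 683, 1197 and 34499 over the same libraries, and those of macrophages to 7.0, 1.54 and 40.6. The part of other cell types in the Ter119+ levels was not tested.

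Culture of BFU-E went with higher levels of most members than in fresh BFU-E. In the CD71 sort with water, whose gate was that of the fresh cells, 29 of 33 members were above fresh BFU-E, where 44.9% of 10060 genes were. At least 2-fold higher were 3 members, Fbl, Npm1 and Ncl, and 0 were 2-fold lower, where 6.27% of genes were higher and 9.06% lower. The members' median difference was 0.42, against -0.08 over all genes. In the CD71/CD24a sort with water 8 of 33 were 2-fold higher, where 11.2% of genes were, and 0 lower, where 12.9% were. The median was again 0.42, against -0.09, and 29 of 33 were above 0, where 45.9% of genes were. In that sort gate and culture differ from fresh BFU-E together and cannot be told apart.

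Over all 6 cultures 23 of the 33 members stood above fresh BFU-E in every one, where 30.8% of 9626 genes did, and 0 stood below in every one, where 36.7% did. Npm1 was 162 in fresh BFU-E, 448 and 305 in the CD71 water and Dex cultures, and 566, 584, 615 and 625 in the CD71/CD24a cultures with water, Dex, DMOG and both. Ncl was 157 in fresh BFU-E, 316 and 259.5 in the CD71 cultures, and 599.6, 649, 519 and 691 in the others. Both genes were higher in all 6 cultures than in any of the 3 fresh libraries. Nop58 was 66.2 fresh, 131 and 107 in the CD71 cultures, and 246, 247.5, 209.8 and 255 in the CD71/CD24a cultures. Polymerase genes differed less: Polr1b was 70.6 in fresh BFU-E and 75.5 to 88.4 in the cultures, and Polr1c was 81.6 and 71.5 to 83.1, on both sides of the fresh level. Rrn3 was 26.8 fresh and 45.5 to 64.2 in culture, above fresh in each.

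The assembly factors show the same spread from clearly higher to level. Of the small subunit genes 7 of 7 were above fresh BFU-E in both water cultures. Wdr75 was 26.1 in fresh BFU-E, 52.8 and 44.3 in the CD71 cultures and 67.3 to 69.4 in the CD71/CD24a cultures, and Nop14 was 29.4, then 55.9 and 56.4, then 64.9 to 71.8. Heatr1 was 36.5 in fresh BFU-E and 64.9 to 71.7 in the 6 cultures, and Utp20 was 19.2 and 29.1 to 32.0, with little spread among cultures. Rrp12 was 42.7 fresh, 56.6 and 64.7 in the CD71 cultures and 40.5 to 47.3 in the others, which lay around fresh BFU-E. Among large subunit genes, Bop1 was 119 fresh, 159 and 193 in the CD71 cultures and 109 to 122 in the others, and Rrs1 was 61.8, then 81.2 and 84.1, then 50.4 to 55.5. Rrs1 was thus above fresh BFU-E in the CD71 cultures and below it in the other 4, and in all 3 genes both CD71 cultures were the highest. Pes1, at 59.1 fresh and 74.2 to 90.8 in culture, was above fresh BFU-E in all 6.

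The difference between cultured and fresh BFU-E followed GC content, in the members as in all genes. Across genes, Pearson's r was -0.50 over the 33 members and -0.37 over 9827 genes for the CD71 sort, and -0.75 and -0.62 (9850 genes) for the CD71/CD24a sort. When the median difference of genes of like GC content was subtracted, the members' medians were 0.58 and 0.64, with 2 and 7 members 2-fold higher. Single genes moved more. In the CD71/CD24a sort Ncl went from 1.93 to 1.25, Nop58 from 1.88 to 1.04 and Npm1 from 1.80 to 1.12, while Wdr12 went from 0.64 to -0.45 and Tcof1 from -0.51 to 0.26. For Ncl, Nop58 and Wdr12 the GC content used is mostly that of sequence outside the coding part, and the size of their adjustment rests on it. The set's shift above the median gene was thus present with and without this adjustment, while the order of its members was not kept.

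**Figure D3:**
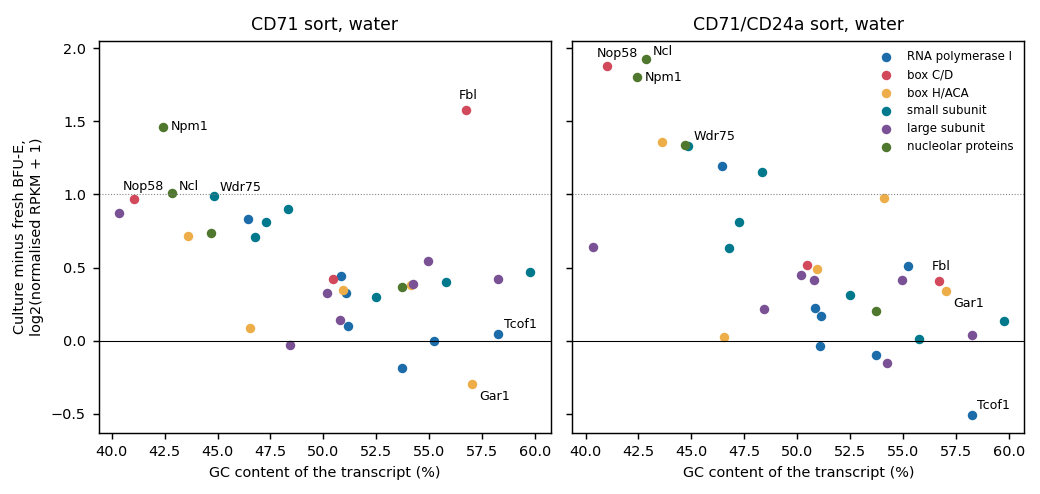
Difference between water cultures and fresh BFU-E in log2(normalised RPKM + 1) against the GC content of the transcript (%), with 1 point per member coloured by role, for the CD71 sort (left) and the CD71/CD24a sort (right). The dotted line marks 2-fold. Points slope down to the right (Pearson r -0.50 and -0.75), and Fbl, at 56.7% GC, lies off the slope in the CD71 sort at 1.58. The GC content of Ncl, Nop58 and Wdr12 is mostly that of sequence outside the coding part.

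The sorts were compared in water alone and over all their cultures. In water, 0 of 33 members were 2-fold higher in the CD71/CD24a sort, where 1.44% of 9737 genes were, and 1 was lower, where 3.07% were. The 1 was Fbl, at 194 in the CD71 sort and 85.6 in the CD71/CD24a sort, a ratio of 0.441 (0.414 to 0.469). Its difference was -1.17, and -0.98 without library factors and -0.92 after subtraction by GC content, both less than 2-fold. The CD71 water library stood apart for this gene, since the CD71 Dex culture was at 77.2, the other cultures at 70.4 to 85.6 and the fresh progenitors at 45.7 and 64.3. Ncl and Nop58 lay just inside 2-fold, with ratios of 1.90 (1.85 to 1.95) and 1.89 (1.80 to 1.97), and without library factors both passed it.

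Over all cultures, 15 members had all 4 CD71/CD24a libraries above both CD71 libraries, where 36.7% of 9535 genes did, and 8 had all 4 below, where 30.9% did. The members' shares, with 10 of 33 overlapping, lie near that background. The 15 higher genes were Npm1, Ncl, Nop56, Nop58, Rrn3, Ubtf, Wdr75, Nop14, Nop16, Dkc1, Nhp2, Gar1, Nolc1, Ebna1bp2 and Gnl3, and the 8 lower ones Polr1a, Bop1, Nop2, Rrp9, Rrp12, Rrs1, Mybbp1a and Tcof1. Dkc1 shows the first kind, at 80.8 and 68.7 in the CD71 cultures and 127, 129, 118 and 115 in the others. Tcof1 shows the second, at 77.0 and 83.7 against 52.1, 46.9, 53.7 and 44.1. The higher genes had a median GC content of 48.3%, the lower ones 55.4% and the overlapping ones 50.5%, and the part of GC content in the split was not tested.

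Dex at 4 h left the members near their water levels. In limma's paired test over the 3 pairs of cultures, 0 members rose and 0 fell at a Benjamini-Hochberg adjusted p under 0.05 over 9535 genes, where 1.39% of genes rose and 0.629% fell. At an unadjusted p under 0.05 there were 2 members, both higher, and 1540 genes in either direction, 691 of them higher. The median difference was 0.05, against -0.02 over all genes, and 23 of 33 members were above 0, as were 4379 of the 9535 genes. The 95% interval of the difference lay within 0.5 of 0 on the log2 scale for 32 of 33 members, all but Fbl.

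Both members at an unadjusted p under 0.05 encode box H/ACA proteins. Gar1 was 109 with water and 125 with Dex in the CD71 sort, 169 and 211 in the CD71/CD24a sort, and 140.2 and 163 in the presence of DMOG. Its Dex level was above its water level in 3 of 3 pairs, by 0.25 in limma's fit (SE 0.07, adjusted p = 0.159 by limma). Nop10 was 216 and 237, 207 and 243, and 218 and 269, a difference of 0.22 (SE 0.07, limma adjusted p = 0.217) that was likewise upward in all 3 pairs. Neither gene passed with all 3 pairs. With either CD71 library left out, which leaves 2 pairs of the CD71/CD24a sort, Gar1 rose by 0.27 and Nop10 by 0.26. Without the CD71 water library, limma's adjusted p was 0.0313 for Gar1 and 0.0398 for Nop10. That fit had 1 residual and 10.7 prior degrees of freedom. The share of all genes that passed in it was not compared with the members. These calls thus do not set either gene apart from other genes. Over all alternatives the limma adjusted p ran from 0.0313 to 1 for Gar1 and from 0.0398 to 1 for Nop10.

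Fbl had the lowest Dex difference, -0.50 (SE 0.24, limma adjusted p = 0.363), with an interval of -1.08 to 0.08. Its pairs were 194 and 77.2 in the CD71 sort, 85.6 and 81.4 in the CD71/CD24a sort, and 76.2 and 70.4 with DMOG, so the size of the difference comes from the CD71 water library. Fbl was the 1 member of 33 that was lower in all 3 pairs, where 21.2% of genes were. Higher in all 3 were 15 members, where 19.5% of genes were, among them Polr1a, Polr1b, Polr1c and Polr1e. Polr1b was 75.7 and 84.7, 79.7 and 88.4, and 75.5 and 79.0 in the 3 pairs, a difference of 0.12 (SE 0.07) that did not pass. For 8 members the directions in the CD71 sort and the CD71/CD24a sort were opposite, in both beyond counting error, where this held for 3.57% of 9248 genes with a coding length. These intervals narrow with the number of reads, and genes were not matched for it. By role, the medians were 0.08 for RNA polymerase I, -0.01 for box C/D, 0.10 for box H/ACA, 0.09 for small subunit, 0.05 for large subunit and -0.03 for nucleolar genes.

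In the wider pathway the Dex test gave 0 calls among 14 other RNA polymerase I genes, 50 small subunit factors, 60 large subunit factors and 15 exosome genes. At an unadjusted p under 0.05 these lists held 1, 5, 6 and 0 genes, and the lists were not tested against the members. Of 21 RNA polymerase III genes 1 rose, Polr3gl, which encodes an alternative subunit of that enzyme (0.80, limma adjusted p = 0.0117). Mycn fell by 0.62 (limma adjusted p = 0.0321), and Myc was 0.25 lower with an adjusted p of 0.225 by limma, at 273 and 260.2, 202 and 160.3, and 177 and 139 in the 3 pairs.

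DMOG was tested in the 2 pairs of the CD71/CD24a sort. Of the members 0 rose and 0 fell, where limma called 0.021% of 9535 genes as risen and 0% as fallen, and 2 were at an unadjusted p under 0.05, both lower, where 347 genes were. The members' median difference was -0.03, with 9 of 33 above 0, against a median of -0.0028 and 4658 of 9535 above 0 over all genes. The 95% interval lay within 0.5 of 0 for 31 members and within 1 for all 33. Gar1 had the lowest difference, at 169 with water and 140.2 with DMOG, and at 211 with Dex and 163 with both, or -0.32 (SE 0.08, limma adjusted p = 0.933). Nhp2, its partner in the box H/ACA particle, was 339.9 and 284, and 348 and 301, or -0.23 (SE 0.09, limma adjusted p = 0.999). Each was lower with DMOG in 2 of 2 pairs, and neither passed the test.

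**Figure D4:**
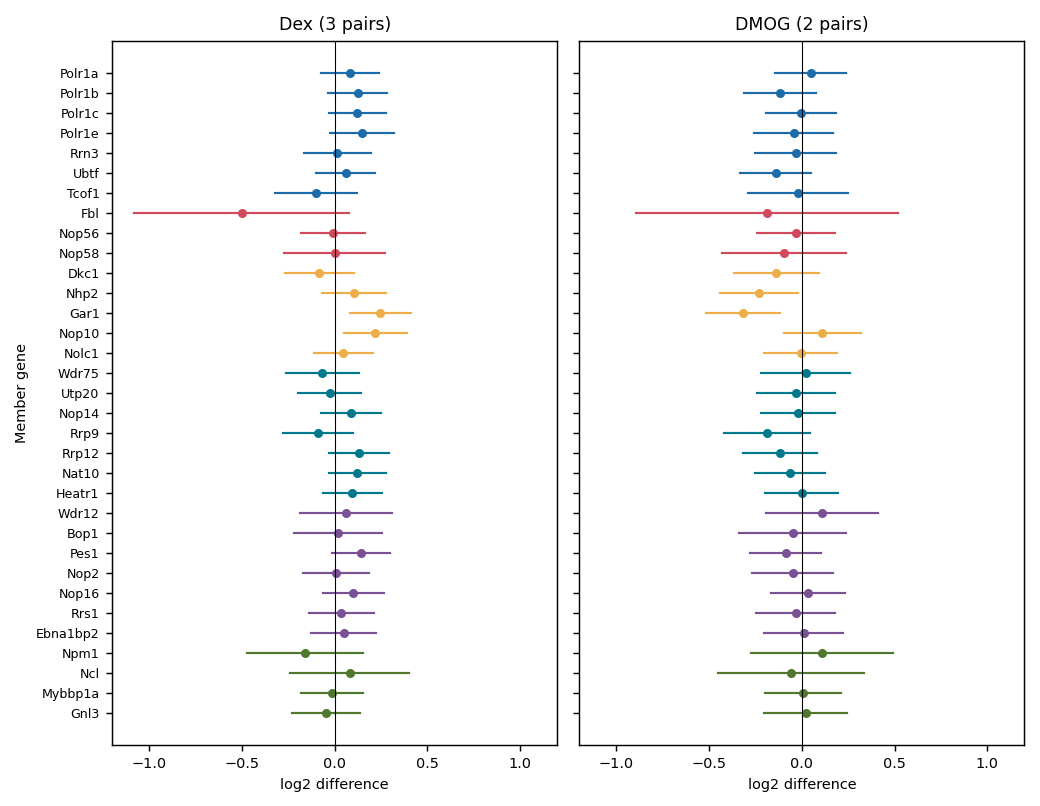
Difference with Dex (left, 3 pairs) and with DMOG (right, 2 pairs) in log2(normalised RPKM + 1) for each of the 33 members, with points at limma's estimate and bars for its 95% interval, coloured by role. Both sets of bars use the spread over all 3 pairs. Points lie close to 0, and the widest bars belong to Fbl, from -1.08 to 0.08 with Dex.

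Whether Dex acts otherwise in the presence of DMOG was tested as 1 more term in the model, with 1 residual degree of freedom. The pairs without DMOG came from both sorts and the pair with it from the CD71/CD24a sort, so the term mixes sort and DMOG. Its residual spread is the disagreement of the Dex difference between the pairs without DMOG. By limma 0 of the 33 members and 0% of the 9535 genes passed, with 1 member and 275 genes at an unadjusted p under 0.05. The 1 member was Ncl, whose Dex difference was -0.28 in the CD71 sort (316 and 259.5), 0.11 in the CD71/CD24a sort (599.6 and 649) and 0.41 with DMOG (519 and 691). The term sets the last against the mean of the other 2 pairs, and was 0.50 (SE 0.22, limma adjusted p = 0.999). The margin on either side of the estimate in the members' 95% intervals for this term had a median of 0.42. These intervals are not corrected for the number of genes tested, and the larger term of Ncl did not pass. Differences between the arms of that size or somewhat more may thus have been missed.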

How the data were processed

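Paired-end mRNA libraries were made from 300 bp gel bands, per the labels' protocols. The authors deposited RPKM values for 23041 RefSeq transcripts per library, per the file headers. The submitters' processing notes name the build mm9, and aligner, counting tool and use of strand are not given in the sources used here. Values of exactly 1 in the 4 CD71/CD24a files, which hold no 0, were read as 0.

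Names came from RefSeq for 22397 records and from GENCODE for 114, and 530 stayed unnamed. A gene with several records is given by its highest on average. The factor of a library is its median ratio to the geometric mean, taken over the 6888 genes that reach 1 RPKM in every library (0.419 for Ter119+, 1.02 to 1.18 for the rest). Differences were taken as log2 of the authors' deposited RPKM after this scaling, with a pseudocount of 1. The steps of low values gave the depth, and 66.9% to 69.9% of those values were whole within 0.1 reads (20% by chance). Intervals of ratios are exact (Clopper-Pearson, 95%), use reads recovered over the coding length, and cover counting error only, as reads can be PCR copies of a molecule. The depth itself was recovered with whole transcript lengths. The reads given are thus fewer, and the intervals wider, than whole transcripts would give.

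Conditions of 1 library were compared by a rule of 2-fold among genes at 1 or more in either library. Cultures were tested with limma 3.58.1 (R 4.3.3; empirical Bayes with trend) on the 9535 genes whose mean reached 1. The model held culture pair and Dex (2 residual and 4.31 prior degrees of freedom), and DMOG was read from the same fit. The pairing comes from the protocol, which divides the cells of a sort between arms. The p-values measure the spread between these libraries, which may be technical.

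Shared sequence is the percent of 32-base words of a gene also found in other transcripts or pseudogenes. Members and lists were chosen with earlier results of these data known. All members may be named, other genes only as the extremes of a list or as Myc and Mycn. Protein sequences were not used here. Alternatives were the pseudocount, no factors, exact values of 1 kept, no filter, no pairing, no trend, each culture left out, a shorter promoter window and, chosen after seeing the data, subtraction of the median of 20 GC bins.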

Additional observations from a re-analysis of the deposited data

Results flagged for a closer look

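For 8 members the Dex difference had opposite directions in the CD71 sort and the CD71/CD24a sort (each with 1 library per arm), in both sorts beyond the 95% interval of counting error, where 3.57% of 9248 genes had this. The difference between the sorts itself was not tested. On the log2 scale, Npm1 had -0.553 in the CD71 sort and 0.0443 in the CD71/CD24a sort, Ncl -0.283 and 0.114, Wdr12 -0.219 and 0.183, and Nop56 -0.0767 and 0.0919. These 4 were lower with Dex in the CD71 sort. The other 4 were higher there: Bop1 had 0.278 and -0.155, Nop2 0.129 and -0.0949, Tcof1 0.118 and -0.1495, and Mybbp1a 0.0538 and -0.0581. Across genes, the CD71 sort difference rose with GC content (Pearson r 0.33 over 9417 genes and 0.32 over the 33 members), and in the CD71/CD24a sort r was -0.02 and -0.30. After subtraction of the median of genes of like GC content, 5 of the 8 still had opposite directions by sign alone. These were Npm1 (-0.371 and 0.0749), Ncl (-0.102 and 0.145), Nop56 (-0.116 and 0.0615), Bop1 (0.152 and -0.0755) and Nop2 (0.0146 and -0.0935). The other 3 no longer had opposite signs, with 0.115 and 0.228 for Wdr12, -0.0401 and -0.0676 for Mybbp1a, and -0.0255 and -0.0697 for Tcof1. Counting error was not applied to the subtracted values, and the share of all genes with opposite signs was not computed for them. For Ncl and Wdr12 the GC content used is mostly that of sequence outside the coding part.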

How the results depend on the processing

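Of 535 values recomputed under alternatives, 466 were labelled the same, 66 moved, 2 stronger and 1 reversed. For the GC bins, counts within a set ratio and medians within the spread of the members were labelled the same. A single gene could thus cross the 2-fold rule without a change of label. Without library factors, the members' median from CFU-E to Ter119+ was -4.04 and from BFU-E to Ter119+ -3.98, Ubtf reversed to -0.82, and between the sorts 2 members were 2-fold higher and 0 lower. With GC bins, chosen after seeing the data, 0 members were lower between the sorts and 31 from BFU-E to Ter119+. With 1 culture left out at a time, 0 to 2 members rose with Dex (Gar1 and Nop10, without either CD71 library). Genes called for Dex were 193 in all, 21 with no filter, 3 with no replicate block, 366 with GC bins and 139 to 1160 with 1 culture left out. For DMOG they were 2, 0 with a pseudocount of 0.1, no filter or no replicate block, 13 with GC bins and 2 to 115 with 1 culture left out, 113 and 115 of these without a CD71 library. With no replicate block 0 members were called for either agent, as in the paired fit. The causes of these changes in the number of calls were not tested. A library left out of a pair removes that pair, and 1 library per fresh population limits all comparisons with them to values.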

Other observations

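Between their start and end, 5 of the 33 members hold annotated snoRNA genes, 15 in all: Ncl, Nop56, Nop58, Dkc1 and Gnl3. Strand and position in introns or exons were not checked, here or for the genes compared below. That is 15.2% of the members, against 2.45% of 9263 protein-coding genes tested in culture. All 5 had the 4 CD71/CD24a cultures above both CD71 cultures. Of 222 host genes outside the members 39.2% did, and of all protein-coding genes 36.7%. The difference between the sorts in water followed GC content (Pearson r -0.51 over 9512 genes and -0.54 over the 33 members). The GC content of the hosts was 41.0% for Nop58, 42.8% for Ncl, 43.6% for Dkc1, 44.7% for Gnl3 and 50.5% for Nop56. Its part in the result for the 5 was not tested. The 5 hosts were chosen by annotation after the levels were known, and no test was made.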
